A study of Mus musculus with 6 samples.

Results

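The genes of the mitochondrial ribosome were compared between osteoclasts of 2 genotypes, to see how the machinery that makes proteins inside mitochondria differed between them. Members were all probes for transcripts whose gene name on the array starts with *Mrpl* or *Mrps* followed by a digit, which gave 119 probes for 77 genes, out of 56605 probes for 37074 gene names. Of the 77 genes, 48 carry a large subunit name (*Mrpl*) and 29 a small subunit name (*Mrps*). Osteoclasts had been grown from bone marrow cells of mice and induced with RANKL, the cytokine that drives osteoclast formation, for 5 days. The controls were 3 *Ano1*fl/fl mice, in which the calcium-activated chloride channel gene *Ano1* is flanked by loxP sites and left intact. The other group was 3 *Ctsk-Cre;Ano1*fl/fl littermates, which carry the same floxed allele and also Cre recombinase driven by the gene of cathepsin K. Deletion therefore depends on *Ctsk* being active, and cells of the culture that never switch it on keep the gene. The age of these 6 mice is not stated, and for bone marrow cultures in general the methods give young adult mice. The arrays are called floxed arrays and Cre arrays below, by their labels, since the probe of *Ano1* itself was well above background on 0 arrays and cannot check the labels. By the brightest probe, 13 of 14 osteoclast markers were higher on the Cre arrays and *Tnfrsf11a* was lower (-0.40 on the log2 scale). Probes of *Nfatc1* disagreed, with 0.53 on the brightest and -0.53 on the other. *Ctsk* was higher by 3.17, *Mmp9* by 4.36 and *Acp5* by 0.84. This is opposite to the direction the study gives for these genes in this genotype. The study also gives a lower *Nfatc1*, for which the arrays show no single direction. The arrays hold no value that settles which label is right. Every direction below therefore holds for the arrays as labelled, and would turn if the labels were exchanged.

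The mitochondrial ribosome translates the few mRNAs encoded by mitochondrial DNA, all of which specify core subunits of the respiratory chain and ATP synthase. Its RNAs come from mitochondrial DNA, whereas its proteins are encoded in the nucleus, made in the cytosol, imported and assembled on those RNAs inside the organelle. Many of the proteins descend from bacterial ribosomal proteins, and others are found only in mitochondria. Osteoclasts are rich in mitochondria, which supply the ATP that acid secretion onto bone requires.

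Before the values, promoters and probes are shown for genes with the largest rises and falls by their brightest probe. Of the 77 genes, 68 had a promoter in the RefSeq table (build GRCm38.p6), with 74 windows of 300 bases that run from 250 bases before to 50 bases after the start of transcription. Matches were sought on both strands for the letters CCGGAAG (the core bound by ETS factors such as GABP, whose ETS subunit *Gabpa* encodes), GCGCATGCG (NRF1) and AAGATGGCG (YY1), factors long known for nuclear genes of mitochondria. CCGGAAG was present in 25 of 74 member windows (33.8%), against 8.86% of all 32851 windows and 11.6% of the 21263 windows of protein-coding genes. GCGCATGCG was present in 7 member windows (9.46%) and in 2.35% of protein-coding windows, and AAGATGGCG in 8 (10.8%) and 1.83%. Matches of different motifs can share only end letters (AAG or GCG), and a match on the opposite strand reads CTTCCGG, CGCATGCGC or CGCCATCTT. Here the windows of *Mrpl52* and *Mrps18b*, which rose most on the Cre arrays, and of *Mrps6*, *Mrpl35*, *Mrpl42* and *Mrpl33*, which fell most, are printed with matches in capitals, so that the promoters of genes moving in opposite directions can be read side by side.
*Mrpl52*, chr14:54426659-54426958, plus strand: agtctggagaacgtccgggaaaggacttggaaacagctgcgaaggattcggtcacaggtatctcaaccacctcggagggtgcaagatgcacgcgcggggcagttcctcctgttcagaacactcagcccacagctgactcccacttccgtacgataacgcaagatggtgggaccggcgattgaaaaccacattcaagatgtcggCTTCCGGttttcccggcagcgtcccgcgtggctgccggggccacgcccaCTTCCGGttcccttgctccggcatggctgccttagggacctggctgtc
*Mrps18b*, chr17:35916391-35916690, minus strand: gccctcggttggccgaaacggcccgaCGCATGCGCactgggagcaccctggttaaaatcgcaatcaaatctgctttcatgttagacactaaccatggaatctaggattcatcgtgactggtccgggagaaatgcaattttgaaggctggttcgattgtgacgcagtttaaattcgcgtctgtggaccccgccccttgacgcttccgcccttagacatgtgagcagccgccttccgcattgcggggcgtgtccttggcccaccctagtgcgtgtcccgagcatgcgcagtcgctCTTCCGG
*Mrps6*, chr16:92058086-92058385, plus strand: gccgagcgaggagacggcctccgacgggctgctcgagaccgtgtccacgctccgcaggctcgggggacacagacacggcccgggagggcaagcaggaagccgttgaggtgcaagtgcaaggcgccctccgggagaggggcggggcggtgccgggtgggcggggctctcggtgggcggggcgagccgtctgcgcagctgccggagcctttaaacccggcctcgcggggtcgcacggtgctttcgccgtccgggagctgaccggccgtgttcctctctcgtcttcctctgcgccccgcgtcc
*Mrpl35*, chr6:71823735-71824034, minus strand: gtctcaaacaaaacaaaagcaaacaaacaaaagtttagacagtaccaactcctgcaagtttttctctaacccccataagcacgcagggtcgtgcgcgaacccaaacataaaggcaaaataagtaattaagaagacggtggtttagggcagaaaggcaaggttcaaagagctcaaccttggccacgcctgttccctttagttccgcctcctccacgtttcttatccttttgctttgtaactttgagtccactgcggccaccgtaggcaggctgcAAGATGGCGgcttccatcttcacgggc
*Mrpl33*, chr5:31613701-31614000, plus strand: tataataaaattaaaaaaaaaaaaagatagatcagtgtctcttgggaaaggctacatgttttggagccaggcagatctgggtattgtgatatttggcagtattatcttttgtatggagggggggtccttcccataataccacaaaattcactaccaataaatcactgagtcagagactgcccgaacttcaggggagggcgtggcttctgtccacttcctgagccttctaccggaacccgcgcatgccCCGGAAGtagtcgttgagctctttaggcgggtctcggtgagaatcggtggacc
*Mrpl42*, chr10:95501900-95502199, minus strand: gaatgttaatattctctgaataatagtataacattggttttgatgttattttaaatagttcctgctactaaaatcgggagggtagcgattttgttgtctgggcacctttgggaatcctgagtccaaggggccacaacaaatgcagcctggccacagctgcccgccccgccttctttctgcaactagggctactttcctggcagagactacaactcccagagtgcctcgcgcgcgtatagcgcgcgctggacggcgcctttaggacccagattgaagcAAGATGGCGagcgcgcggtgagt

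*Mrpl52* holds 2 matches to the ETS core, *Mrps18b* holds 1 together with 1 NRF1 match, *Mrpl33* holds 1 ETS core, *Mrpl42* and *Mrpl35* hold 1 YY1 match each, and *Mrps6* holds 0 matches to the 3 motifs. Among the 68 genes with a window, the ETS core was found in 4 of 7 whose brightest probe rose, in 8 of 23 that fell and in 13 of 38 that did not pass the test. Matches to the NRF1 letters were found in 1 of the 7, 0 of the 23 and 6 of the 38, and to the YY1 letters in 0, 3 and 5. Genes with the ETS core had a median log2 difference of -0.14 and those without it of -0.07. The medians with and without the NRF1 letters were 0.14 and -0.12, and with and without the YY1 letters -0.17 and -0.08. A match describes the letters of a window and does not show that a factor binds there. *Mrps11* and *Mrpl46* are arranged head to head on chromosome 7 with 42 bases between their starts, so that their windows share 141 bases, and their differences were -0.12 and 0.08, neither past the test.

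Probes on the array are 60 bases long. Among the members 15 cross an exon junction by their mm9 positions, and 2 of these belong to the genes that rose most. They are shown because such a probe reports spliced RNA.
*Mrps18b*, probe A_52_P207964, chr17:36051313-36051461 of mm9, minus strand: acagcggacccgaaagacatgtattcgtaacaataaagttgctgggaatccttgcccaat
*Mrps35*, probe A_51_P110841, chr6:147009999-147019119 of mm9, plus strand: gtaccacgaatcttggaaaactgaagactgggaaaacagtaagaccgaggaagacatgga

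Members were well measured. A probe was tested where every array of a group read it well above background, and 113 of the 119 probes passed, covering all 77 genes. Of the 113 probes, 111 were above background on all 6 arrays, so the filter rarely turned on 1 group. The other 6 probes were below background on all 6 arrays (1 each for *Mrpl23*, *Mrpl47*, *Mrpl48*, *Mrpl52*, *Mrps18b* and *Mrps5*), and each of these genes had another probe that was tested. Values are log2 processed signals, quantile normalized between the 6 arrays, and a difference is the mean of the Cre arrays minus the mean of the floxed arrays with limma's standard error and an adjusted p (Benjamini-Hochberg) over all 31848 probes tested. A probe is called at an adjusted p under 0.05. The signal of a probe depends on its sequence, so levels are compared between arrays and never between probes. With 3 arrays against 3 an exact two-sided permutation test cannot go below 0.1, and the number of arrays limits the precision throughout. In bulk RNA, fewer cells of a type and less RNA per cell cannot be told apart.

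The mitochondrial ribosome did not move as a block. On the Cre arrays 14 of the 113 tested probes were called higher (12.4%, against 21.8% of all probes), 34 were called lower (30.1%, against 30.6%) and 65 did not pass. The median log2 difference of the members was -0.08, and that of all probes tested was -0.09. The members' values ran over a narrow range. The median size of a difference, regardless of sign, was 0.21 for members and 0.37 for all probes, the middle of the distribution ran from -0.30 to 0.10 (quartiles), and the extremes were -1.12 and 0.91. Called changes of more than 2-fold were seen in 0 member probes on the higher side (0 also at limma's unadjusted p under 0.05 and by the methods' t-test) and in 2 on the lower side, against 8.91% and 8.11% of all probes. In both directions together the count past 2-fold was 0 with normexp or the series matrix values, 3 with the 75th percentile scaling, and 4 without floxed replicate 2 or floxed replicate 3. The groups did not overlap in 25 member probes that were higher and 51 that were lower, which is 22.1% and 45.1% of the 113, against 26.9% and 37.1% of all probes. No test of the members against other probes was made.

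Counted by gene, with the brightest tested probe standing for each, 9 of 77 genes were higher, 23 were lower and 45 did not pass. The background is 23% higher and 28.5% lower among 20650 genes. Under a scaling of each array to its 75th percentile, in place of quantile normalization, the split of called member probes was 10 higher and 44 lower in place of 14 and 34, and all probes moved to 19.1% higher and 33.5% lower. Within the brightness range that holds the middle of the members, 57 member probes had 5 higher (8.77%) and 10 lower (17.5%), while the 7462 probes of that range had 23.3% and 28.8%. On the arrays themselves the median log2 signal over the members was 12.52, 12.67 and 12.53 on the floxed arrays and 12.35, 12.44 and 12.39 on the Cre arrays. The Cre medians all lay below the floxed ones. Over all tested probes the medians were 8.47, 8.47 and 8.46 on the floxed arrays and 8.46, 8.44 and 8.44 on the Cre arrays. Taken probe by probe, the median difference was -0.08 for the members and -0.09 for all probes.

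**Figure D1:**
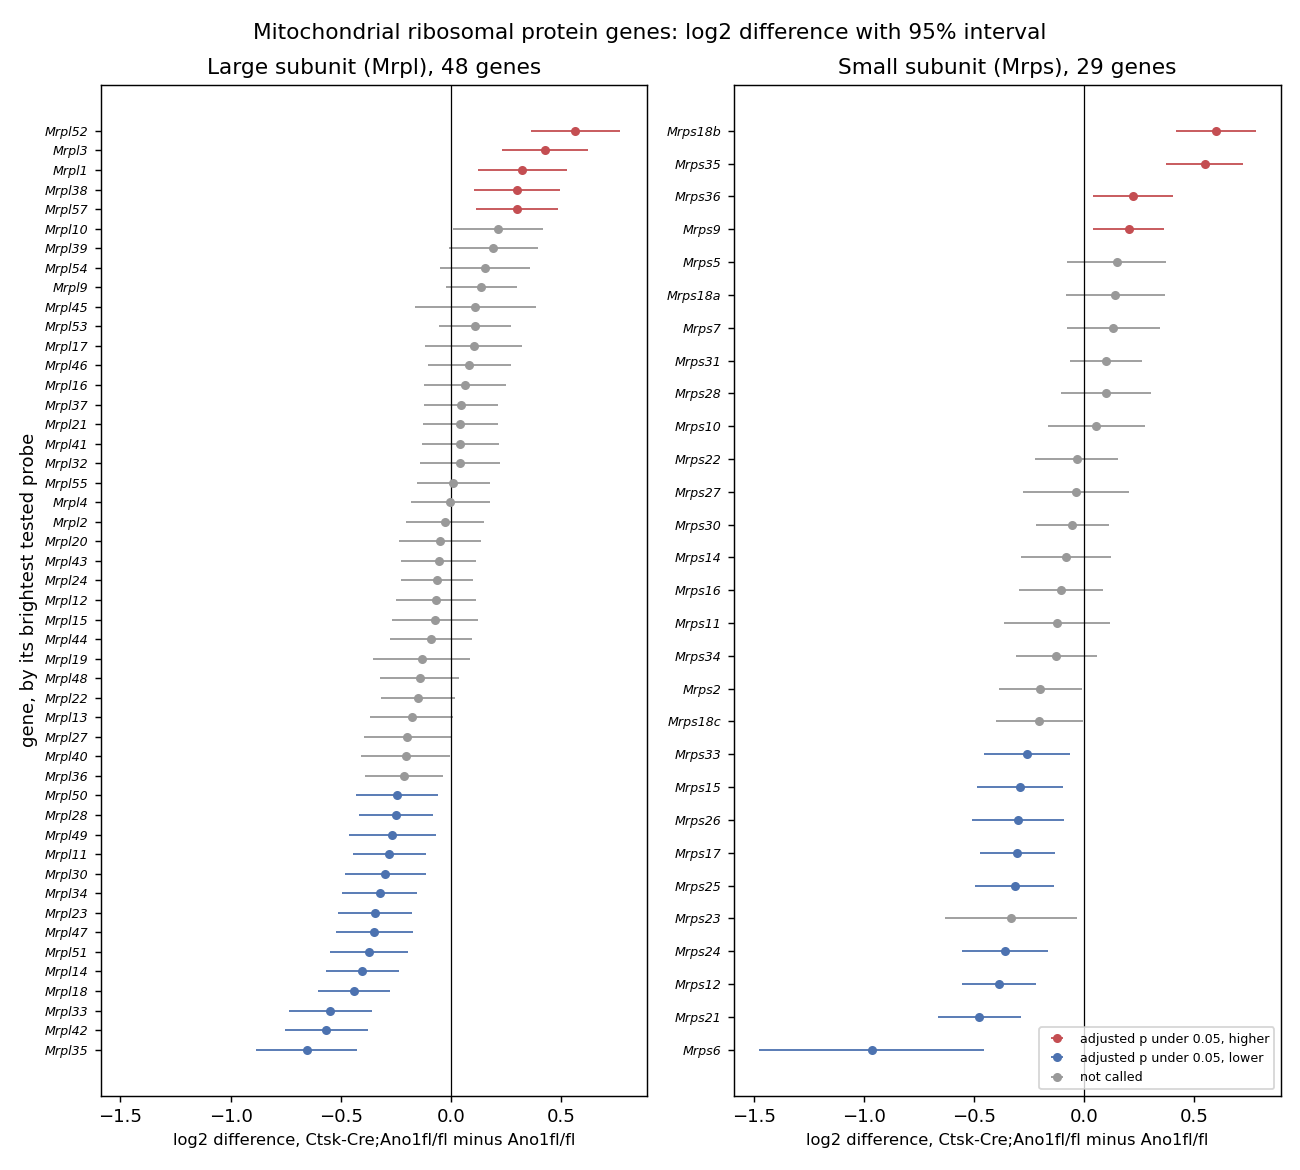
Log2 difference (Cre arrays minus floxed arrays) of the brightest tested probe of each of the 48 large subunit and 29 small subunit genes, with limma's 95% interval; red and blue points passed the test as higher and lower, grey points did not. In all, 9 genes are red and 23 are blue, from *Mrps18b* at 0.60 to *Mrps6* at -0.96.

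The 9 genes that rose fall in both subunits. *Mrps18b* rose most. It is 1 of 3 mammalian relatives of a single bacterial small subunit protein, and its log2 signals were 13.61, 13.67 and 13.52 on the floxed arrays and 14.22, 14.17 and 14.20 on the Cre arrays. The Cre arrays all lay above the floxed arrays, with a log2 difference of 0.60 (SE 0.08, adjusted p = 0.00112 by limma), a 1.51-fold rise. Its other tested probes rose as well, by 0.58 and, on the junction probe printed above, by 0.91 (signals 9.30, 9.56 and 9.20 against 10.45, 10.18 and 10.16). The relatives did not move with it, as the brightest probe of *Mrps18a*, which despite its name sits in the large subunit, had a difference of 0.14 (adjusted p = 0.241) and that of *Mrps18c* one of -0.20 (adjusted p = 0.0782).

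*Mrpl52*, a mitochondria-only protein of the central protuberance, the crown of the large subunit, gave 13.89, 14.04 and 14.03 on the floxed arrays and 14.50, 14.51 and 14.63 on the Cre arrays. Its log2 difference was 0.56 (SE 0.08, adjusted p = 0.00209), with no overlap between the groups. *Mrps35*, a mitochondria-only protein of the small subunit, was measured by the junction probe and gave 10.56, 10.66 and 10.63 against 11.13, 11.22 and 11.14. The groups were again apart, and the difference was 0.55 (SE 0.07, adjusted p = 0.00136). *Mrpl3*, a large subunit protein that reaches towards the site of peptide bond formation, gave 13.03, 13.04 and 12.86 against 13.41, 13.40 and 13.41, a difference of 0.43 (SE 0.08, adjusted p = 0.0054). These 4 genes kept their direction and call under all 16 alternatives that were run besides stricter fold thresholds.

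The remaining 5 rose by smaller amounts. *Mrpl1*, counterpart of the bacterial protein of the stalk near the tRNA exit, gave 11.87, 11.93 and 11.85 on the floxed arrays and 12.11, 12.19 and 12.32 on the Cre arrays (log2 difference 0.32, SE 0.08, limma adjusted p = 0.0179). *Mrpl38*, of the central protuberance, gave 10.20, 10.14 and 10.09 against 10.53, 10.44 and 10.36 (0.30, SE 0.08, adjusted p = 0.0213). *Mrpl57*, a small mitochondria-only protein, gave 14.57, 14.70 and 14.62 against 14.91, 14.89 and 14.98 (0.30, SE 0.08, adjusted p = 0.0177). The groups were apart in each of the 3 genes. *Mrps36*, whose product is now known as a part of the alpha-ketoglutarate dehydrogenase complex rather than of the ribosome, gave 12.79, 12.72 and 12.65 against 12.97, 12.91 and 12.94 (0.22, SE 0.07, adjusted p = 0.046). *Mrps9*, a counterpart of a bacterial small subunit protein, gave 11.13, 11.16 and 11.18 against 11.35, 11.36 and 11.36 (0.20, SE 0.07, adjusted p = 0.0418). These 5 genes lost their call in 4 to 9 of the 16 alternatives, at adjusted p of up to 0.221 for *Mrps36*.

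The lower side held 23 genes. The largest fall was that of *Mrps6*, counterpart of a bacterial protein of the small subunit's platform. Its signals were 14.50, 13.83 and 13.76 on the floxed arrays and 13.25, 13.03 and 12.92 on the Cre arrays. All Cre arrays were below all floxed arrays, but floxed replicate 1 stood above the other two of its group, and the difference of -0.96 carried the widest error among the named members (SE 0.21, limma adjusted p = 0.00981). Over the 16 alternatives besides stricter fold thresholds the difference of *Mrps6* lay between -1.10 and -0.73 and passed each time, with adjusted p up to 0.0443. At -0.96 it fell short of 2-fold.

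Several ribosomal proteins of bacterial descent in the large subunit were lower. *Mrpl35*, measured by a dim probe, gave 6.84, 7.01 and 6.74 against 6.13, 6.27 and 6.23, a log2 difference of -0.65 (SE 0.10, adjusted p = 0.00193). With normexp background correction its difference was -0.38, the smallest among the alternatives, and it still passed. *Mrpl33*, whose promoter is printed above, gave 15.17, 15.28 and 15.22 against 14.60, 14.68 and 14.74 (-0.55, SE 0.08, adjusted p = 0.00175). *Mrpl18*, of the central protuberance, gave 12.92, 12.92 and 12.86 against 12.45, 12.46 and 12.46 (-0.44, SE 0.07, adjusted p = 0.00238). The groups did not overlap in any of these. *Mrpl14*, which lies at the face that meets the small subunit, gave 14.46, 14.50 and 14.42 against 14.08, 14.04 and 14.04 (-0.40, SE 0.07, adjusted p = 0.00378).

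Of the 29 mitochondria-only genes, 7 were lower (24.1%) and 5 higher (17.2%) by the brightest probe, against 28.5% and 23% of all genes. Among the lower ones, *Mrpl42* gave 13.79, 13.83 and 13.70 on the floxed arrays and 13.14, 13.25 and 13.24 on the Cre arrays (log2 difference -0.57, SE 0.08, limma adjusted p = 0.00161). *Mrpl51* gave 15.05, 15.14 and 15.02 against 14.69, 14.67 and 14.74 (-0.37, SE 0.07, adjusted p = 0.0065). Both genes separated the groups. In the small subunit, *Mrps21* was lower on all 3 of its tested probes, by 0.48, 0.44 and 0.39, the brightest giving 14.50, 14.47 and 14.37 against 14.05, 13.94 and 13.94 (SE 0.08, adjusted p = 0.00312). *Mrps12*, counterpart of the bacterial protein beside the decoding centre, gave 13.36, 13.34 and 13.32 against 13.01, 12.93 and 12.94 (-0.39, SE 0.07, adjusted p = 0.00462). *Mrps24* gave 12.44, 12.45 and 12.27 against 12.01, 12.04 and 12.04 (-0.36, SE 0.08, adjusted p = 0.0109). All of these, from *Mrpl35* to *Mrps24*, kept direction and call under the 16 alternatives. The other 13 called lower were *Mrpl11*, *Mrpl23*, *Mrpl28*, *Mrpl30*, *Mrpl34*, *Mrpl47*, *Mrpl49*, *Mrpl50*, *Mrps15*, *Mrps17*, *Mrps25*, *Mrps26* and *Mrps33*, with differences from -0.35 to -0.25.

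**Figure D2:**
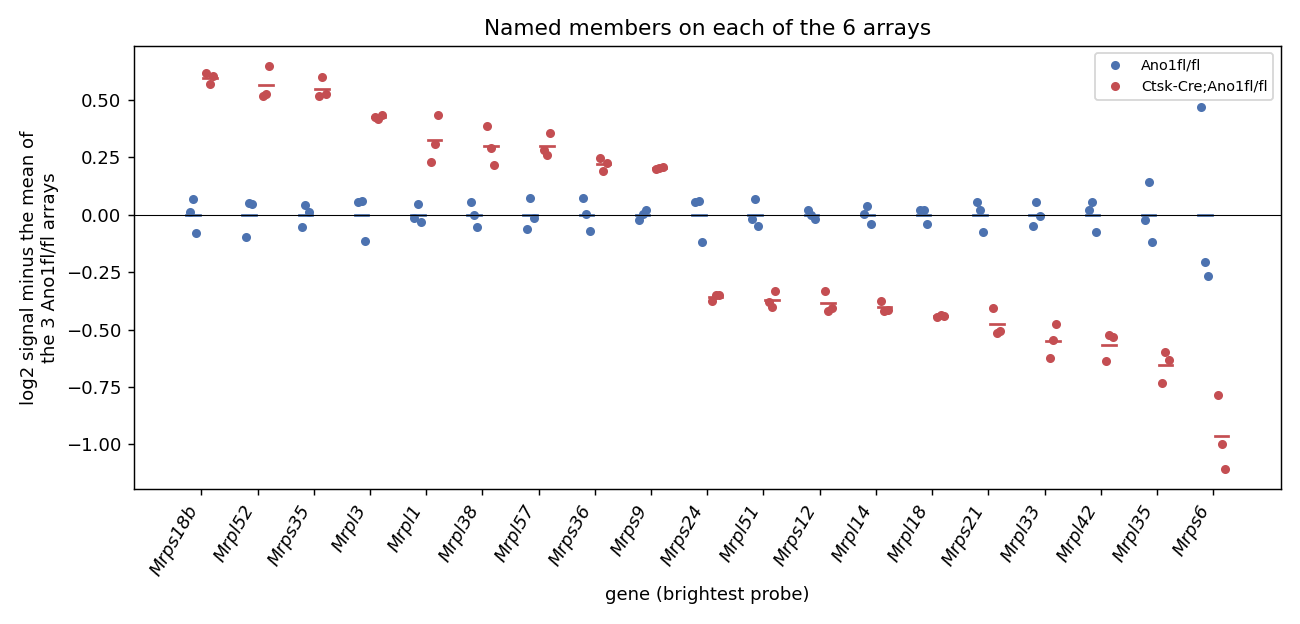
Log2 signal of the brightest probe of the 19 named members on each array, less the mean of the 3 floxed arrays (blue, floxed; red, Cre; bars, group means). The red and blue points do not overlap in any of the 19 genes, and the blue points of *Mrps6* are the most scattered.

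The members were then set out by place in the ribosome, from general knowledge of its structure. The shares to read these counts against are 21.8% higher and 30.6% lower among all probes. Over the large subunit names, 7 of 66 tested probes were higher (10.6%) and 18 lower (27.3%), with a median difference of -0.06. Over the small subunit names, 7 of 47 were higher (14.9%) and 16 lower (34%), with a median of -0.16. Proteins with a bacterial counterpart had 8 higher (10.8%) and 25 lower (33.8%) of 74 probes (median -0.12), and mitochondria-only proteins had 6 higher (15.4%) and 9 lower (23.1%) of 39 (median -0.05). With the 75th percentile scaling the medians of the large and small subunit were -0.15 and -0.21, and without floxed replicate 2 they were -0.03 and -0.10. Without floxed replicate 3 the large subunit had 3 probes higher. The small subunit had 4 higher without floxed replicate 2, floxed replicate 3 or Cre replicate 1. None of these counts was tested against another.

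Counts by place within the large subunit are by gene, against 23% higher and 28.5% lower among all genes. The genes near the peptidyl transferase centre had values near 0 for *Mrpl2* (-0.03), *Mrpl4* (-0.0029) and *Mrpl16* (0.06), and *Mrpl3* was the called gene among these 4. The stalk that recruits translation factors had 1 called gene of 5, *Mrpl11*, at -0.28 (signals 13.70, 13.78 and 13.76 against 13.46, 13.48 and 13.45, limma adjusted p = 0.0153). Its partner in the stalk base *Mrpl10* had 0.21 (adjusted p = 0.0757), and *Mrpl12*, whose protein also binds the mitochondrial RNA polymerase, had -0.07 (adjusted p = 0.47). Around the exit tunnel 2 of 8 genes were called, *Mrpl23* at -0.35 and *Mrpl47* at -0.35, both lower, a share of 25% that is near that of all genes. The central protuberance held calls in both directions, *Mrpl52* and *Mrpl38* higher and *Mrpl18* lower, with 5 of its 8 genes not called.

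Genes with several probes show how far a gene's difference depends on the probe. There were 28 such genes with more than 1 tested probe, and 0 of them had probes called in opposite directions. Probes of *Mrps21*, *Mrps18b*, *Mrps17* (-0.30 and -0.38) and *Mrps9* (0.20 and 0.32) agreed in direction and call. The 2 member probes past 2-fold were both dim probes of genes whose brighter probe had a smaller difference. For *Mrps15* the dim probe (A_52_P563470) gave 7.22, 7.06 and 7.25 against 6.03, 6.04 and 6.10, a difference of -1.12, while the bright probe gave -0.29 (adjusted p = 0.023). For *Mrpl24* the dim probe (A_65_P02651) gave 6.19, 6.30 and 6.13 against 4.61, 5.24 and 5.52, a difference of -1.09, while the bright probe had -0.06 (adjusted p = 0.449).

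In *Mrpl13*, *Mrpl27* and *Mrpl48* a dim probe was called lower as well (-0.51, -0.40 and -0.52), while the brightest probe did not pass (-0.18, -0.20 and -0.14). The dim probe of *Mrpl48* was above background on 1 of 3 Cre arrays. It passed the filter through the floxed arrays alone, the group where it was higher. The size of its fall is therefore not well measured, and its call adds no support for a lower *Mrpl48*, although it is counted among the probes called lower.

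Other genes had probes on both sides of 0. *Mrps5* had 0.15 on its brightest probe (adjusted p = 0.223) and -0.33 on another that crosses an exon junction (adjusted p = 0.0217). *Mrps18a* had 0.14 and -0.34 (adjusted p = 0.006 for the latter), and *Mrpl38* had 0.30, 0.49 and -0.10. *Mrpl9* had 0.14 on its brightest probe (adjusted p = 0.131) and 0.38 on the next (adjusted p = 0.00651), and a dim probe that was not well above background on any Cre array, for which only a bound exists. Whether these probes measure different transcript ends was not tested.

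**Figure D3:**
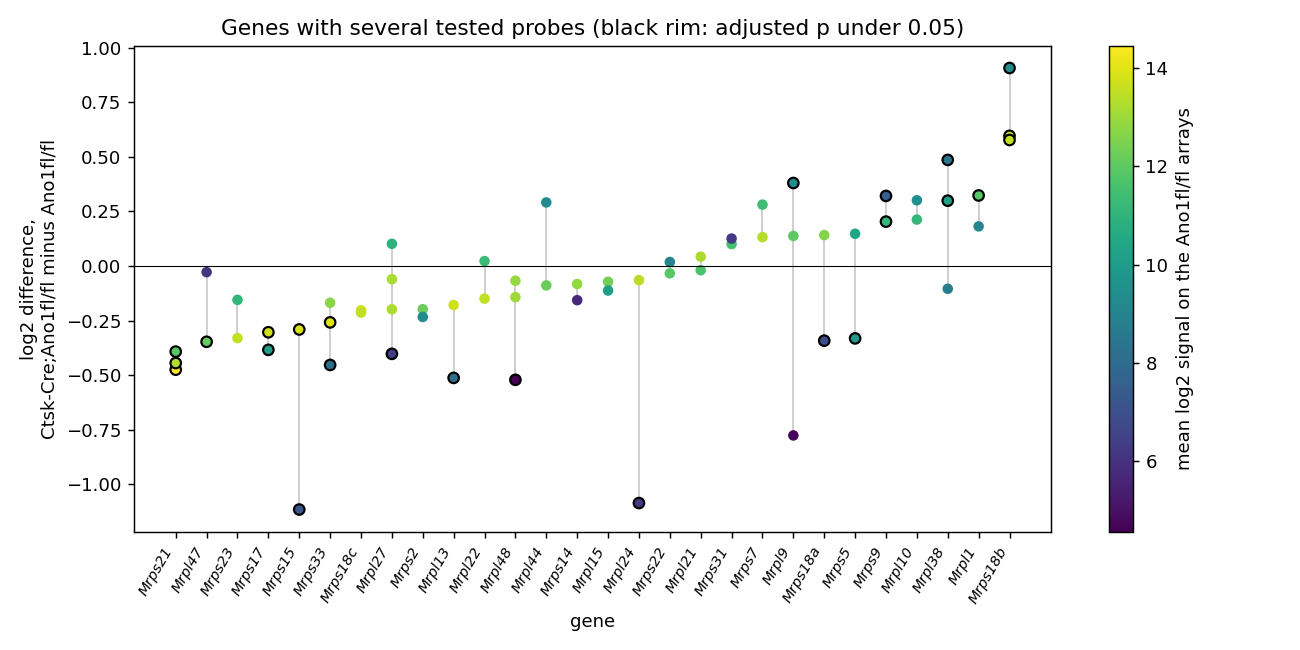
Log2 difference of every tested probe of the 28 genes with several tested probes; colour is the mean log2 signal on the floxed arrays, a black rim marks an adjusted p under 0.05, and a grey line joins the probes of a gene. The lowest points, -1.12 for *Mrps15* and -1.09 for *Mrpl24*, are dark (dim) and stand far below the brighter probe of the same gene.

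Other proteins of the mitochondrial ribosome carry names outside the rule. The 6 on the array that were listed (*Dap3*, *Ptcd3*, *Chchd1*, *Aurkaip1*, *Gadd45gip1* and *Ict1*) had differences from -0.20 to 0.07, and 0 of 6 passed limma's test. By limma's unadjusted p under 0.05 there were 2 of 6, and the methods' t-test after Benjamini-Hochberg adjustment also called 2. Counts over the next lists are by gene and are to be read against 23% higher and 28.5% lower among all 20650 genes. Genes that assemble the ribosome and modify its RNA had 5 higher and 5 lower of 30. *Afg3l2*, a protease of the inner membrane that matures *Mrpl32* protein, rose by 0.77 (11.11, 11.37 and 11.29 against 11.94, 12.15 and 11.97, adjusted p = 0.00145), with 0.24 on its other probe (adjusted p = 0.495). *Nsun4* and *Mterf3*, which act on ribosome assembly, rose by 0.50 and 0.42 (adjusted p = 0.00366 and 0.00614), although 1 of the 3 probes of *Nsun4* had 0.02 (adjusted p = 0.881) and the mean of its probes was 0.32, whereas *Mterf4*, the partner of *Nsun4* protein, fell by 0.43 (adjusted p = 0.00278). *Tfb1m*, the methyltransferase of the small ribosomal RNA, fell by 0.48 (adjusted p = 0.0336, but not called in 6 of 16 alternatives, with adjusted p up to 0.103) and *Rbfa*, a small subunit maturation factor, fell by 0.41 (adjusted p = 0.00699).

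Translation factors had 2 higher and 3 lower of 13. The elongation factor *Gfm1* rose by 0.43 (13.03, 13.17 and 13.08 against 13.51, 13.54 and 13.52, adjusted p = 0.00365). *Gfm2*, of ribosome recycling, rose by 0.33 on its brightest probe (adjusted p = 0.0246), but the mean of its probes was -0.18. Its call was lost in 6 of 16 alternatives (adjusted p up to 0.191). The release factors *Mtrf1l* and *Mtrf1* fell by 0.40 and 0.31, and *Mtfmt*, which formylates the initiator tRNA, fell by 0.28 (adjusted p = 0.00574, 0.0378 and 0.0214). *Mtrf1* lost its call in 8 of 16 alternatives (adjusted p up to 0.105) and *Mtfmt* in 5 (up to 0.0697), whereas *Mtrf1l* passed in each. The list of mitochondrial tRNA synthetases had 4 higher and 5 lower of 20. That list also holds *Gatb*, *Gatc* and *Qrsl1*, which are subunits of a tRNA amidotransferase and not synthetases. *Gatc* is 1 of the 5 lower, at -0.385 (adjusted p = 0.0072). The largest rises were those of *Nars2* at 0.93 (7.74, 7.82 and 7.72 against 8.66, 8.71 and 8.70, adjusted p = 0.000161) and *Wars2* at 0.88 (adjusted p = 0.000906). The other probe of *Wars2* gave 0.06 (adjusted p = 0.558), and the mean of both gave 0.47. *Iars2* had 0.54 (adjusted p = 0.002) on its brightest probe but -0.000375 as a mean of its probes. On the lower side were *Lars2* (-0.48), *Cars2* (-0.48) and *Vars2* (-0.40), with adjusted p of 0.00253, 0.00467 and 0.00342.

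Genes of mitochondrial transcription and RNA handling had 5 higher and 3 lower of 19. *Mterf2*, which binds mitochondrial DNA, rose by 1.44 (7.08, 7.44 and 7.39 against 8.78, 8.49 and 8.95, adjusted p = 0.000564). *Trmt10c*, a subunit of mitochondrial RNase P, rose by 0.63 (adjusted p = 0.00106) and *Tbrg4* (*Fastkd4*) by 0.63 (adjusted p = 0.0154). Another RNase P subunit, *Hsd17b10*, fell by 0.26 (adjusted p = 0.0384), and *Slirp* and *Mterf1a* fell by 0.27 and 0.31 (adjusted p = 0.0223 and 0.0323). Each of these 3 lost its call in 6 of 16 alternatives, at adjusted p of up to 0.113 for *Hsd17b10*, 0.0669 for *Slirp* and 0.0979 for *Mterf1a*. The other probe of *Slirp* gave -1.51 (adjusted p = 9.16e-05), and the mean of both gave -0.89. *Tbrg4* lost its call in 3 alternatives (up to 0.0524). *Tfam*, which packages mitochondrial DNA, had -0.04 (adjusted p = 0.699).

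Regulators of nuclear genes for mitochondria moved apart from each other. *Ppargc1b*, a coactivator known to drive mitochondrial biogenesis in osteoclasts, rose by 1.12 (10.49, 10.23 and 10.41 against 11.46, 11.70 and 11.32, SE 0.13, limma adjusted p = 0.000714), with the Cre arrays well above the floxed arrays. *Esrra*, a nuclear receptor that it binds, rose by 0.41 (13.17, 13.05 and 13.03 against 13.52, 13.54 and 13.43, adjusted p = 0.00577), although its other probe had -0.13 (adjusted p = 0.352) and the mean of both, 0.14, did not pass (adjusted p = 0.173). *Nrf1* fell by 0.35 (10.57, 10.58 and 10.59 against 10.21, 10.24 and 10.24, adjusted p = 0.00563), with -0.36 and -0.05 on its other probes (adjusted p = 0.0119 and 0.722). *Gabpa*, which encodes an ETS subunit of GABP, had 9.87, 9.89 and 9.93 against 9.81, 9.85 and 9.89, overlapping groups and a difference of -0.05 (adjusted p = 0.589).

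*Pprc1*, a relative of *Ppargc1b*, had 11.19, 11.19 and 11.10 against 11.40, 11.36 and 11.29, apart but not past the test (0.19, adjusted p = 0.0747). It passed in 3 of 16 alternatives (adjusted p down to 0.0327), and its other probes had -0.37 and 0.34, neither past the test. *Myc* had 11.17, 11.92 and 11.66 against 11.89, 11.60 and 12.06, with overlapping groups (0.27, adjusted p = 0.325). *Yy1* (-0.03) did not pass either. *Gabpb1*, which encodes the partner subunit of GABP, had 0.04 on its brightest probe (adjusted p = 0.792), but its probes disagreed. Of its 6 tested probes, 3 were called higher (0.53, 0.75 and 0.55, adjusted p = 0.00458, 0.00281 and 0.0159) and 1 was called lower (-0.70, adjusted p = 0.00151), so no direction is given for the gene. *Ppargc1a* was not tested because it was not above background in either group.

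The proteins that the mitochondrial ribosome serves are the mitochondrially encoded subunits, which join nuclear subunits in the respiratory chain. Of 11 probes for mitochondrial mRNAs, 7 were higher and 0 were lower in limma's test (0 lower also at an unadjusted p under 0.05 and by the methods' t-test), and the median difference was 0.30, with differences from 0.11 to 0.43. The share called higher was 63.6%, against 21.8% of all probes. *ND5* gave 13.44, 13.61 and 13.40 against 13.90, 13.95 and 13.90 (0.43, limma adjusted p = 0.00642). *CYTB* gave 16.29, 16.32 and 16.27 against 16.55, 16.76 and 16.62 (0.35, adjusted p = 0.0129). The count was 2 higher with the 75th percentile scaling, where the median was 0.21, and it was 3 without floxed replicate 1, floxed replicate 3 or Cre replicate 2.

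Nuclear subunits of oxidative phosphorylation had 46 higher and 14 lower of 120 probes (median 0.12), against 21.8% and 30.6% of all probes. Examples are *Uqcrc2* of complex III (0.63), *Atp5a1* of ATP synthase (0.58) and *Ndufs1* of complex I (0.50 on its brightest probe, -0.93 on a dim one), while *Ndufa5* (-0.28) was lower. With the 75th percentile scaling these counts were 27 and 15 and the median 0.02, and the lower count was 7 without floxed replicate 3 or Cre replicate 3 and 9 without floxed replicate 2 or Cre replicate 1. Cytosolic ribosomal proteins had 4 higher and 10 lower of 167 probes, with a median of -0.0044 (quartiles -0.09 and 0.06). These counts were 14 and 24 by the methods' t-test, 17 and 23 with trend and robust settings in limma, 8 and 17 with normexp, 9 and 15 without the filter on dim probes, and 4 and 20 with the 75th percentile scaling. No test of the members against these groups was made.

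**Figure D4:**
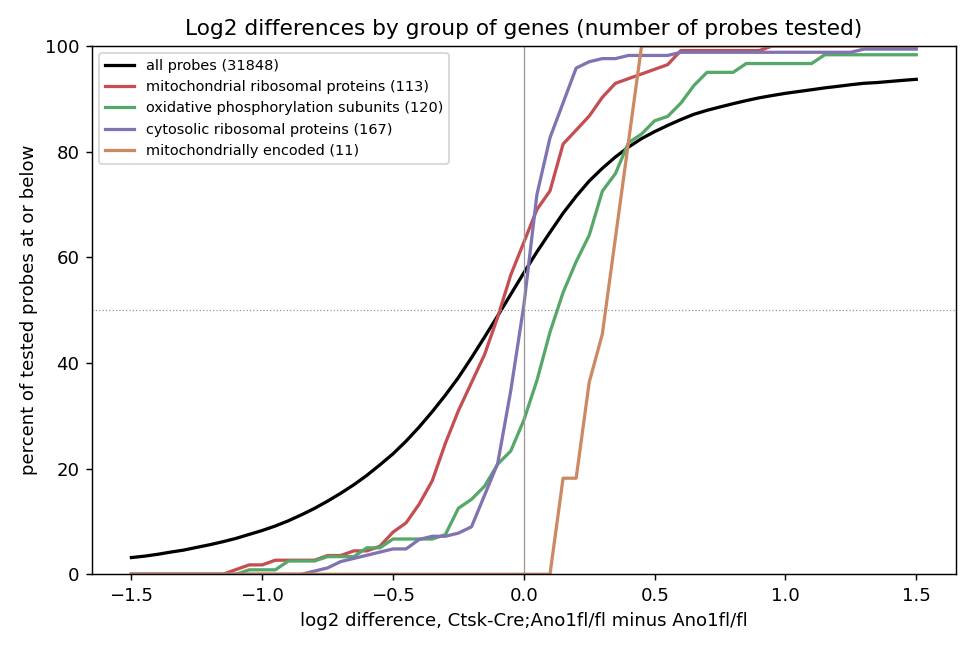
Cumulative share of tested probes (percent, vertical) at or below each log2 difference (Cre minus floxed, horizontal) for 113 member probes, 120 probes of oxidative phosphorylation, 167 of cytosolic ribosomal proteins, 11 mitochondrially encoded and all 31848. The member curve crosses 50 percent near the curve of all probes and is steeper, and the respiratory curves lie to its right.

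**Figure D5:**
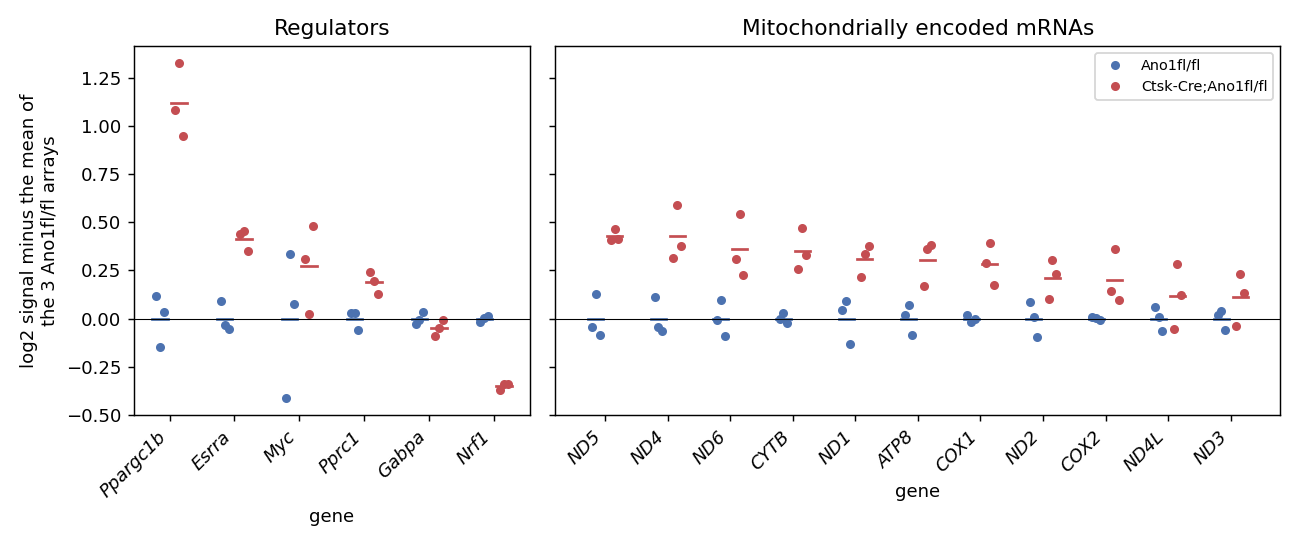
Log2 signal on each array less the mean of the 3 floxed arrays for 6 regulators and the 11 mitochondrially encoded mRNAs (blue, floxed; red, Cre; bars, group means). *Ppargc1b* lies highest, *Nrf1* is the regulator below 0 on all Cre arrays without overlap, and the means of all 11 mitochondrial mRNAs are above 0.

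The 2 groups of arrays also differed in the cell types and cycling that their markers reflect. With only 2 groups, these shifts cannot be told apart from the differences above. Osteoclast markers were higher for 13 genes and lower for 1 of 14 tested, with a summed log2 signal of 17.77 to 17.88 on the floxed arrays and 19.25 to 19.43 on the Cre arrays, and *Ctsk* itself was higher by 3.17. Stromal and osteoblast markers were higher for 12 and lower for 1 of 15 (14.53 to 14.64 against 16.52 to 17.07), with *Bglap* not above background in either group. B cell markers were higher for 5 of 5 (12.86 to 13.13 against 14.81 to 15.77). Cell cycle genes were lower for 15 of 15 (17.86 to 17.99 against 16.70 to 17.12), and neutrophil precursor markers were lower for 8 and higher for 2 of 12 (18.49 to 18.56 against 17.85 to 18.14). Macrophage markers were lower for 7 and higher for 1 of 12 (19.23 to 19.30 against 18.95 to 19.14), and T and NK cell markers were higher for 1 and lower for 2 of 5 (11.46 to 11.58 against 10.27 to 10.72). Of 6 erythroid markers, 5 were not above background in either group and *Hba-a1* was lower. The part of these shifts in the differences of the mitochondrial ribosome was not tested.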

How the data were processed

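RNA of osteoclasts from 6 mice, 3 per genotype, was labelled with Cy3 and hybridised to 6 one-colour Agilent mouse arrays that shared 1 slide and 1 scan. The deposited scanner files hold intensity per spot, made by Agilent Feature Extraction 10.7.1.1, and the processed signal has background subtracted, with no normalization between arrays. Intensity values are also what the deposited series matrix gives, equal to the median spot brightness.

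Processed signals were converted to log2, outlier spots were set missing, and arrays were quantile normalized, as the methods name, with limma 3.58.1 in R 4.3.3. Spots of a probe were averaged. A probe was tested where at least 0.5 of its spots were well above background on all 3 arrays of a group, 31848 in all, without 14 probes that lacked a value on some array. Groups were compared by limma (lmFit, eBayes) with Benjamini-Hochberg adjustment. Sequences were handled in Python 3.11.15 with pandas 2.3.3, figures in matplotlib 3.10.9. RefSeq promoters were matched by transcript accession for 77 of 77 genes, 68 of which had a window. Protein sequences were not used here.

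Members, gene lists and marker lists were chosen with earlier results of these data known, and the lists of ribosome places, assembly factors, regulators and cell type markers were compiled by hand from general knowledge. Values on all arrays are given for up to 10 genes with the largest rise and 10 with the largest fall by the brightest probe, among those with an adjusted p under 0.05, groups that do not overlap and a brighter group above background on each array, and 9 genes qualified on the higher side. The same rule named up to 3 rises and 3 falls in each other list, and the regulators were named whatever their values. Alternatives changed the scaling, the background correction (normexp, offset 50), the source of the values, the filter, the handling of several probes, the test, the threshold and the arrays, 1 at a time.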

Additional observations from a re-analysis of the deposited data

How the results depend on the processing

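Counts of called member probes and their median difference kept their direction under every alternative run, and 0 of the 48 called member probes changed direction. Set against all probes, the median of the members had no steady side. The members' median less that of all probes was 0.0042 in the main setting. It was -0.06 without the filter on dim probes and 0.02 without Ano1fl/fl replicate 2. With the 75th percentile scaling the median over the members was -0.16 where that of all probes was -0.14, and 44 of the 48 kept their call. Over the alternatives that keep the probes apart and the threshold at 0.05, 34 to 48 kept it, with 35 under the replicate block, 34 without Ano1fl/fl replicate 2 and 36 without Ano1fl/fl replicate 3. The count called higher was 9 with the brightest probe of each gene and 8 with the mean of a gene's probes, which also test fewer units (77 genes). Asking for a fold above 1.5 left 2 higher and 4 lower, and a fold above 2 left 0 and 2. Leaving out 1 array gave 7 to 13 higher and 25 to 32 lower probes, with 7 higher without Ano1fl/fl replicate 3 and 9 without Ano1fl/fl replicate 2. The labels do not say whether mice with the same replicate number were paired. Correlations between same-numbered arrays, with each group centred, were -0.02, -0.08 and -0.09. Those between other arrays of the 2 groups ran from -0.08 to 0.16, so these values neither show nor exclude pairing. With a replicate block 10 probes were higher and 25 lower, 8 probes of oxidative phosphorylation were lower and 4 mitochondrially encoded probes were higher. Among the 19 named members, 14 kept direction and call in all 16 alternatives besides the fold thresholds, and *Mrpl1*, *Mrpl38*, *Mrpl57*, *Mrps36* and *Mrps9* lost the call in 4 to 9. The call was also lost in 8 for *Mtrf1*, in 6 each for *Tfb1m*, *Hsd17b10*, *Slirp* and *Mterf1a*, and in 5 for *Mtfmt*. Over the mean of their probes *Gfm2* turned to -0.1823 and *Iars2* to -0.0003754. The cause was not tested. Signal over background limits the dimmest probes, 6 of which were not tested.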

Other observations

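Among the members that did not pass the test, the spread within the floxed arrays was wide for a few. *Mrps23* gave 13.71, 13.47 and 13.29 on the floxed arrays and 13.25, 13.07 and 13.17 on the Cre arrays on its brightest probe, and *Mrpl45* gave 13.83, 13.56 and 13.47 against 13.83, 13.70 and 13.66. In both genes, as in *Mrps6*, floxed replicate 1 was the highest floxed array.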
